A study of Mus musculus with 6 samples.

Results

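Zinc handling in the mouse anterior prostate (AP) was followed through 10 genes. These were the metallothionein genes Mt1 and Mt2, the zinc-sensing transcription factor gene Mtf1, the zinc exporter genes Slc30a1, Slc30a2 and Slc30a4, and the zinc importer genes Slc39a1, Slc39a4, Slc39a8 and Slc39a14. They were picked by symbol from tables of 55076 genes per mouse, and 10 of 10 were found. RNA-seq was performed on total RNA of the whole AP of male mice at 20 weeks of age, with 1 library from each of 3 OEx and 3 Ctrl mice. OEx mice were Pbsn-Cre Rosa26 N1ICD/+, in which the probasin promoter drives Cre in prostatic epithelium and Cre switches on the Notch1 intracellular domain (N1ICD) from the Rosa26 locus. Ctrl mice carried the same Rosa26 N1ICD/+ allele without Cre by the study's methods, whereas the labels give their genotype as wild type. Stroma, vessels and blood cells, which the transgene does not target, were part of the sequenced tissue in both groups. The comparison asks how these genes differ in level when Notch1 is overactive in the prostatic epithelium.

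The prostate is known for storing and secreting very large amounts of zinc. Proteins of the SLC39 (ZIP) family bring zinc into the cytosol from outside or from organelles, and those of the SLC30 (ZnT) family move it out of the cytosol, across the cell surface or into vesicles. Metallothioneins are small cysteine-rich proteins that bind zinc, copper and cadmium in the cell. The transcription factor MTF1 binds zinc and acts on metal response elements in the promoters of Mt1, Mt2 and Slc30a1, which are textbook targets of it.

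Promoters of these 3 genes are printed here because both metallothioneins were called lower and Slc30a1, which answers to the same factor, was not called. The 250 bases before the RefSeq transcription start (GRCm38.p6) were searched on both strands for the core of the metal response element, TGCGCNC or TGCACNC, and for the site GTGGGAA of RBPJ, the DNA-binding partner of N1ICD. Capitals mark the matches, in the order 5′ to 3′ on the plus strand, which is the coding strand of all 3 genes.
Mt1 at chr8:94178839-94179088: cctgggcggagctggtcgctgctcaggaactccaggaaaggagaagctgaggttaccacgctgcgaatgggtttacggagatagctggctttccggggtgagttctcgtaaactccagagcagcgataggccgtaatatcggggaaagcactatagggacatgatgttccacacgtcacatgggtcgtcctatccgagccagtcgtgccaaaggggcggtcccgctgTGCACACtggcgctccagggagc
Mt2 at chr8:94172368-94172617: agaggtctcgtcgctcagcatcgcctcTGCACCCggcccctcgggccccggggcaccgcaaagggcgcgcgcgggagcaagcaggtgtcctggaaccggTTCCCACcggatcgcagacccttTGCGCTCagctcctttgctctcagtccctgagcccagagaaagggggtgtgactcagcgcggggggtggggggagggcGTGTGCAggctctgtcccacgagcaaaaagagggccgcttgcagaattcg
Slc30a1 at chr1:191906531-191906780: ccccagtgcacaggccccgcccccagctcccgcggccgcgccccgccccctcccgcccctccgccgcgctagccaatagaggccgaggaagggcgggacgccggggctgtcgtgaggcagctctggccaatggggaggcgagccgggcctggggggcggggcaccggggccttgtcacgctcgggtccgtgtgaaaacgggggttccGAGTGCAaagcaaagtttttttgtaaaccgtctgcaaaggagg
In Mt1 the capitals mark 1 metal response element core within this window, 23 to 17 bases before the listed start. In Mt2 they mark 3 such cores, starting 223, 128 and 50 bases before the start, and also 1 match to the RBPJ letters, 151 to 145 bases before the start on the opposite strand. In Slc30a1 they mark 1 core on the opposite strand, 43 to 37 bases before the start. RefSeq promoters were found for 8 of the 10 genes, all but Slc39a4 and Slc39a14, and 6 of these held at least 1 core. Slc30a2 and Slc30a4 held 2 each, Slc39a8 held 1 in the second of its 2 listed promoters, and Mtf1 and Slc39a1 held none. Among all 32851 promoters of this length, 21.4% held a core, 1.26% held 3 or more, and 5.42% held the RBPJ letters. Only these 250 bases were searched, so cores farther upstream or past the listed start are not counted. The counts therefore do not give the number of elements of a gene and do not rank the genes. A match describes letters only, and binding was not measured in these samples.

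Levels are given in FPKM, a count of fragments divided by gene length and library size, as the authors deposited them. Whole reads could be recovered from the FPKM values of named genes matched to an exon length, between 14772005 and 18655462 per mouse. The read total by which the FPKM values had been divided was 1.22 to 1.34 times this number in OEx and 0.726 to 0.815 times in Ctrl, so a scaling between mice was already in the files. Notch1, which includes reads of the transgene, was at 41.9, 47.6 and 78.9 FPKM in OEx and 5.18, 5.55 and 3.34 FPKM in Ctrl. Replicates 1 and 2 of each group lay closer to each other than to replicate 3 (Pearson r across genes 0.991 in both groups, against 0.951 to 0.966 with replicate 3). The chi-square of their counts per degree of freedom was 3.10 in Ctrl and 4.35 in OEx, more than counting noise gives, against 63.4 to 104 with replicate 3. The labels list them as separate mice, and whether they are was not tested. With the 2 averaged, so that n was 2 per group, the same number of the 10 genes was called (2 higher and 4 lower), while the adjusted p of Slc30a1 moved to 0.173 and that of Slc39a1 to 0.0862. Ctrl replicate 3 carried 16128 FPKM of 6 seminal vesicle genes, against 4.36 FPKM or less in every other mouse. The test was limma's on log2(FPKM + 1), run over 12553 named genes whose mean reached 1 FPKM, all 10 genes included. A gene was called higher or lower with a Benjamini-Hochberg adjusted p under 0.05 and a fold change over 2. Because 1 FPKM was added, fold changes of low genes are understated. In whole tissue, fewer cells of a type and less RNA per cell cannot be told apart.

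In OEx, 4 of the 10 genes were called lower (Mt1, Mt2, Slc39a4 and Slc30a2), 2 were called higher (Slc39a8 and Slc30a4), and 4 were not called (Mtf1, Slc30a1, Slc39a1 and Slc39a14). Over all tested genes, 28.2% were called, 12.8% higher and 15.5% lower. By adjusted p alone, 3 were higher and 6 lower, beside 67.4% of all tested genes in either direction. Groups did not overlap for 9 of the 10 genes, with OEx above Ctrl for 3 and below for 6. Over all tested genes this held for 72.5%, with OEx above for 33.6% and below for 38.9%. The balance of calls over all genes depends on the scaling, with 1604 higher and 1941 lower as deposited and 4367 higher and 446 lower once FPKM were rescaled to the same sum in each mouse. The median log2 fold change of the 10 genes was -0.66, beside -0.07 over all tested genes. Without Ctrl replicate 3, again 2 were called higher and 4 lower.

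**Figure D1:**
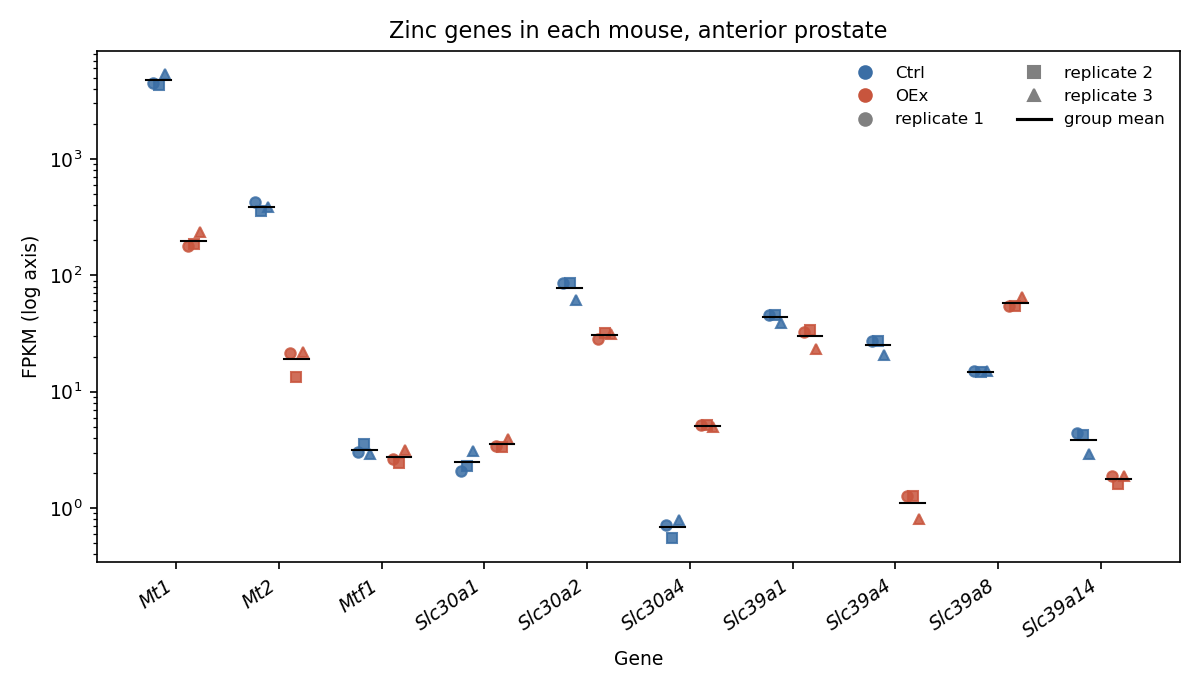
FPKM (log axis) of the 10 zinc genes in each of the 6 mice, with the replicate number as the marker shape, the group as the colour and a bar at the group mean. Mt1, Mt2 and Slc39a4 lie far lower in OEx, Slc30a4 and Slc39a8 lie higher, and only Mtf1 has overlapping groups.

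Mt1 and Mt2 encode the 2 broadly expressed metallothioneins, and on the scale of log2(FPKM + 1) their falls were the largest changes among the 10 genes. By group means Slc39a4 lay between them, and with 0.1 FPKM added in place of 1, or with limma-voom, it passed Mt2. Mt1, on chromosome 8 from 94179082 to 94180327 (GRCm38, plus strand), reached 178, 185 and 234 FPKM in OEx and 4520, 4332 and 5366 FPKM in Ctrl. Its mean was 199 ± 30.3 FPKM in OEx against 4739 ± 551 FPKM in Ctrl (SD, n = 3), which is 23.8 times as high in Ctrl. The limma log2 fold change was -4.57 (SE 0.15, adjusted p = 1.55e-05). Every OEx mouse lay far below every Ctrl mouse, and Mt1 ranked 23 from the lowest log2 fold change of the 12553 tested genes. In Ctrl, Mt1 was among the most abundant transcripts of the gland, at place 9, 9 and 8 by FPKM in the 3 mice. In OEx it stood at place 171, 163 and 134. These places are set within a mouse and do not depend on the scaling between mice.

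Mt2, which lies next to Mt1 on chromosome 8 from 94172664 to 94173568 on the same strand, followed it at a lower level. It was at 21.6, 13.4 and 21.8 FPKM in OEx and 425, 357 and 386 FPKM in Ctrl. All OEx mice again lay below all Ctrl mice, with a mean 20.6 times as high in Ctrl and a log2 fold change of -4.32 (SE 0.19, limma adjusted p = 2.43e-05). The antisense gene Gm45774 shares 432 of the 588 exonic bases of Mt2. It was at 0.328 to 0.470 FPKM in OEx and 2.32 to 2.97 FPKM in Ctrl. Genes on the opposite strand also share 721 of 8907 exonic bases with Mtf1, 468 of 5244 with Slc30a1 and 130 of 5482 with Slc30a4. The one overlapping Mtf1, 1110065P20Rik, was called lower, at 3.2 to 3.7 FPKM in OEx and 26.6 to 31.7 FPKM in Ctrl. Those overlapping Slc30a1 and Slc30a4 reached at most 0.353 and 0.292 FPKM in any mouse. Whether reads were counted by strand is not given in the sources used here, and the part of these genes in the values was not tested. The level of Mt1 was 8.24, 13.8 and 10.7 times that of Mt2 in the OEx mice and 10.6, 12.1 and 13.9 times in the Ctrl mice. The ratio overlapped between groups, while the mean of each gene was at least 20.6 times as high in Ctrl. How reads fitting both genes were assigned is likewise not given.

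The rest of the family went the same way where it was detected. Mt3, a metallothionein best known from the brain, was at 0.376, 0.0820 and 1.61 FPKM in OEx and 253, 289 and 262 FPKM in Ctrl, with a log2 fold change of -7.42 (SE 0.31, limma adjusted p = 2.07e-05). Only 8, 2 and 31 reads stood behind the OEx values. From the summed reads, the Ctrl level was 424 times the OEx level, with a 95% interval of 312 to 591 that covers counting error only. Mt4, known from squamous epithelium, was listed at 0 in all 6 mice. Summed over Mt1, Mt2 and Mt3, metallothioneins made up 1.12, 1.07 and 1.15 percent of all FPKM in the Ctrl mice and 0.0786, 0.0788 and 0.0951 percent in the OEx mice.

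The gene whose pattern over the 6 mice was most like that of Mt1 was Krt5, the keratin of prostate basal cells. The mean absolute difference between their log2(FPKM + 1) profiles, each centred on its own mean, was 0.11. Chac1, which encodes a glutathione-degrading enzyme, and Gdf15, a secreted stress-responsive factor, followed with 0.18 and 0.19, and Mt2 was next with 0.22. Likeness here is mostly a like difference between the groups. Basal cell markers were lower in OEx throughout, with 3 of 3 (Krt5, Krt14 and Trp63) called lower, none at 0, and a summed level of 3.72 to 5.32 FPKM against 99.4 to 122 FPKM in Ctrl. Among 7 luminal markers, the largest log2 fold changes were those of Tgm4 (-5.44), Pbsn (-2.60) and Cd24a (-1.83). Of these 7, 5 were called lower, beside 15.5% of all tested genes, and none was at 0. The sums of these markers were 3089 to 6361 FPKM in OEx and 25474 to 25693 FPKM in Ctrl. Their part in the fall of the metallothioneins was not tested.

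Mtf1, which encodes the factor that senses zinc and switches on metallothionein genes, was not called. On chromosome 4 from 124802104 to 124849800, it was at 2.64, 2.45 and 3.14 FPKM in OEx and 3.04, 3.53 and 2.93 FPKM in Ctrl. It was the only one of the 10 genes with overlapping groups. The log2 fold change was -0.16 with a 95% confidence interval of -0.43 to 0.12 (limma adjusted p = 0.27), and the exact two-sided permutation test of 3 against 3 mice gave p = 0.3. The interval leaves out a 2-fold change in either direction at the deposited scaling. With FPKM rescaled to the same sum in every mouse, which moved the median of all genes from -0.07 to 0.66, the value was 0.51 (limma adjusted p = 0.0073), and without the 20 most abundant genes in that sum it was 0.33 (limma adjusted p = 0.0438), both inside the 2-fold limit. For each of the other 9 genes, the groups did not overlap and that permutation test gave p = 0.1, the smallest that 20 assignments of 3 of 6 mice allow.

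The 3 exporters each behaved differently. Slc30a1 (ZnT1), the main zinc exporter of the cell surface, lies on chromosome 1 from 191906767 to 191913247. It was at 3.40, 3.38 and 3.93 FPKM in OEx and 2.09, 2.30 and 3.09 FPKM in Ctrl. The OEx mice lay above the Ctrl mice by a small margin, with a log2 fold change of 0.40 (SE 0.13, limma adjusted p = 0.0354), below the 2-fold limit. It passed that limit at 1.07 when FPKM were rescaled to equal sums. Leaving out any 1 mouse other than Ctrl replicate 3 moved the adjusted p over 0.05, up to 0.11. The fold change of Slc30a1 was thus of opposite sign to those of Mt1 and Mt2 in the same mice.

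Slc30a2 (ZnT2), which loads zinc into secretory vesicles of gland cells, was the most abundant of the 10 SLC30 genes in both groups. On chromosome 4 from 134343181 to 134354484, it was at 28.6, 32.0 and 31.1 FPKM in OEx and 85.3, 86.6 and 61.9 FPKM in Ctrl. All OEx mice were lower, and the lowest Ctrl value was that of replicate 3. The mean was 2.55 times as high in Ctrl, with a log2 fold change of -1.31 (SE 0.14, limma adjusted p = 3.04e-04). This call was lost at -0.42 (adjusted p = 0.0787) when FPKM were rescaled to equal sums. Relative to the median of all genes it was then -1.08, and -1.23 at the deposited scaling.

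Slc30a4 (ZnT4), a vesicle transporter whose mutation causes the lethal milk trait of mice, rose from a low level. It lies on chromosome 2 from 122681233 to 122702663 on the minus strand. Its values were 5.157, 5.177 and 5.002 FPKM in OEx and 0.714, 0.549 and 0.792 FPKM in Ctrl, from 39 to 66 reads per Ctrl mouse. The OEx mice were tightly grouped and lay 7.46 times as high on average, with a log2 fold change of 1.86 (SE 0.10, limma adjusted p = 3.37e-05). The increase held under every alternative in which the gene was tested, from 1.80 to 2.89.

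The importers split as well. Slc39a8 (ZIP8), which carries zinc and manganese into cells, became the most abundant transporter among the 10 genes in OEx. On chromosome 3 from 135825279 to 135888572, it was at 54.9, 54.1 and 65.0 FPKM in OEx and 14.9, 14.6 and 15.0 FPKM in Ctrl. No OEx mouse came near the narrow Ctrl range, with a mean 3.91 times as high in OEx and a log2 fold change of 1.89 (SE 0.094, limma adjusted p = 2.76e-05).

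Slc39a4 (ZIP4), the zinc importer of the gut that is mutated in acrodermatitis enteropathica, went the other way. It lies on chromosome 15 from 76612383 to 76617384 on the minus strand. Its values were 1.26, 1.27 and 0.803 FPKM in OEx, from 45 to 90 reads per mouse, and 27.4, 27.4 and 20.6 FPKM in Ctrl. Every OEx mouse lay far below every Ctrl mouse, and the mean was 22.7 times as high in Ctrl. The log2 fold change was -3.63 (SE 0.15, limma adjusted p = 2.11e-05), which ranked 50 from the lowest.

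Slc39a1 (ZIP1), often named as a zinc uptake transporter of prostate cells, was not called. On chromosome 3 from 90248172 to 90253612, it was at 32.9, 34.2 and 23.2 FPKM in OEx and 45.9, 45.5 and 38.9 FPKM in Ctrl. The groups did not overlap, with OEx below Ctrl, and the log2 fold change was -0.53 (95% confidence interval -0.92 to -0.14, limma adjusted p = 0.0241). The sign turned to 0.35 when FPKM were rescaled to equal sums, so no direction is given for it.

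Slc39a14 (ZIP14), an importer of zinc, iron and manganese, was the lowest of the 4 importers in Ctrl. On chromosome 14 from 70303469 to 70351425 (minus strand), its values were 1.88, 1.61 and 1.89 FPKM in OEx and 4.41, 4.21 and 2.94 FPKM in Ctrl. The OEx mice lay below all Ctrl mice with a mean 2.15 times as high in Ctrl, but the log2 fold change of FPKM + 1 was -0.78 (SE 0.15, limma adjusted p = 0.0031), inside the 2-fold limit. With 0.1 FPKM added in place of 1 it was -1.04 and was called, as it was at -1.08 with limma-voom on the recovered reads.

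The order of levels per length was therefore rearranged. In Ctrl it ran Mt1, Mt2, Slc30a2, Slc39a1, Slc39a4, Slc39a8, Slc39a14, Mtf1, Slc30a1 and Slc30a4 by mean FPKM. Neighbours differed beyond the spread of the 3 mice except that Mtf1 overlapped with both Slc39a14 and Slc30a1. In OEx the order was Mt1, Slc39a8, Slc30a2, Slc39a1, Mt2, Slc30a4, Slc30a1, Mtf1, Slc39a14 and Slc39a4, and only Slc30a2 and Slc39a1 overlapped. Mt2 moved from place 2 to 5, Slc39a4 from place 5 to 10, and Slc30a4 from place 10 to 6.

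**Figure D2:**
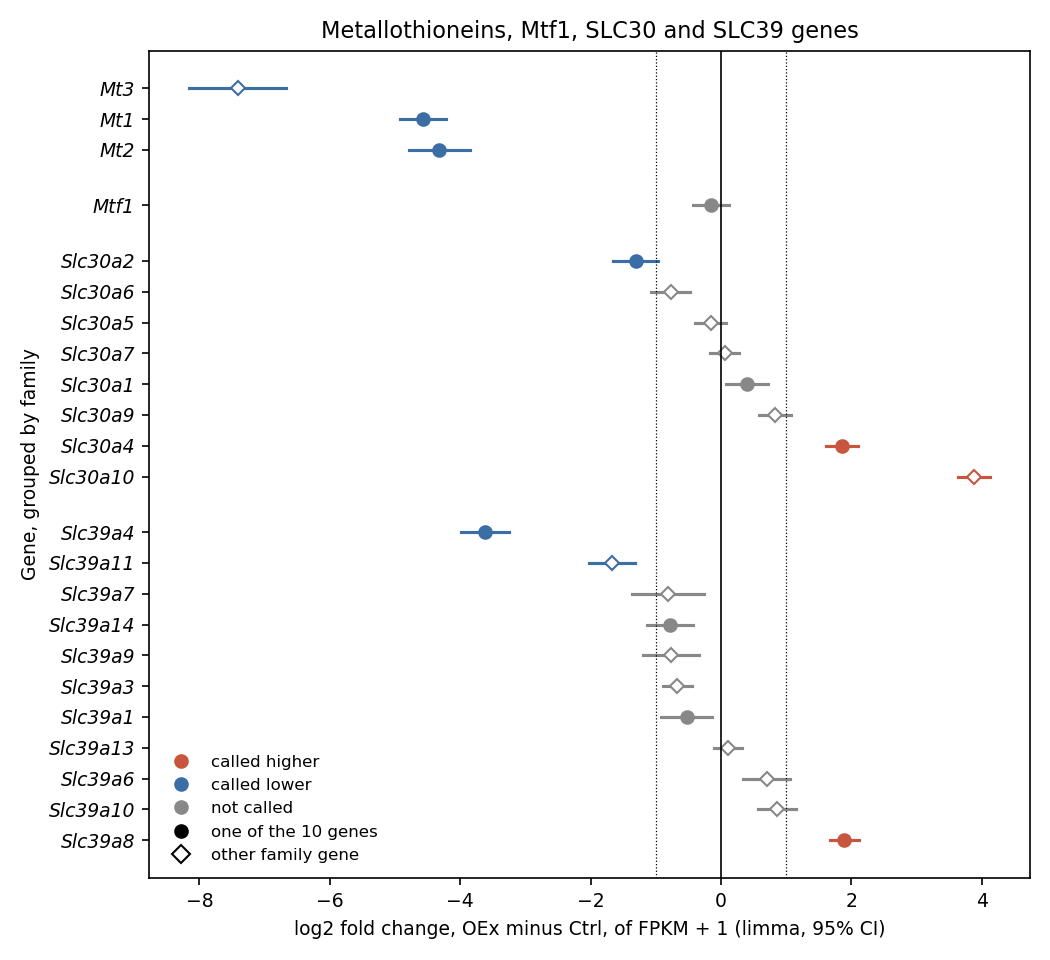
Log2 fold change of FPKM + 1, OEx minus Ctrl, with limma 95% confidence intervals, for each tested gene of the metallothionein, SLC30 and SLC39 families and Mtf1. Dotted lines stand at a 2-fold change, filled circles are the 10 genes and open diamonds the other family genes. Mt3 at -7.42 and Slc30a10 at 3.88 lie farthest out, and most transporters lie inside the dotted lines.

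Of the 24 genes of the SLC30 and SLC39 families, 19 passed the filter. Of these, 3 were called higher and 3 lower, beside 12.8% and 15.5% of all tested genes, and 13 neither. By adjusted p alone, 7 were higher and 9 lower, beside 30.9% and 36.5% of all tested genes. The median log2 fold change was 0.23 over 8 SLC30 genes and -0.67 over 11 SLC39 genes. Apart from the genes above, the calls were Slc30a10 (higher) and Slc39a11 (lower).

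Slc30a10 (ZnT10), known chiefly as a manganese exporter, was at 15.6, 14.6 and 13.0 FPKM in OEx and at 0.0411, 0.0529 and 0.0338 FPKM in Ctrl, where 3, 4 and 3 reads were found. It was thus near the limit of detection in Ctrl and well expressed in every OEx mouse. The log2 fold change was 3.88 (SE 0.10, limma adjusted p = 1.42e-05). Summed reads put the OEx level at 342 times the Ctrl level, with a 95% interval of 186 to 714 for counting error only. Slc39a11 (ZIP11), an intracellular member of the importer family, was at 6.52, 6.08 and 8.02 FPKM in OEx and 25.4, 27.2 and 19.9 FPKM in Ctrl, without overlap. Its log2 fold change was -1.67 (SE 0.15, limma adjusted p = 1.31e-04), and the call was lost at -0.84 with FPKM rescaled to equal sums. The 13 transporters that were not called ranged from -0.81 for Slc39a7 to 0.85 for Slc39a10. Slc30a8, the zinc transporter of insulin granules, was listed at 0 in all 6 mice.

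**Figure D3:**
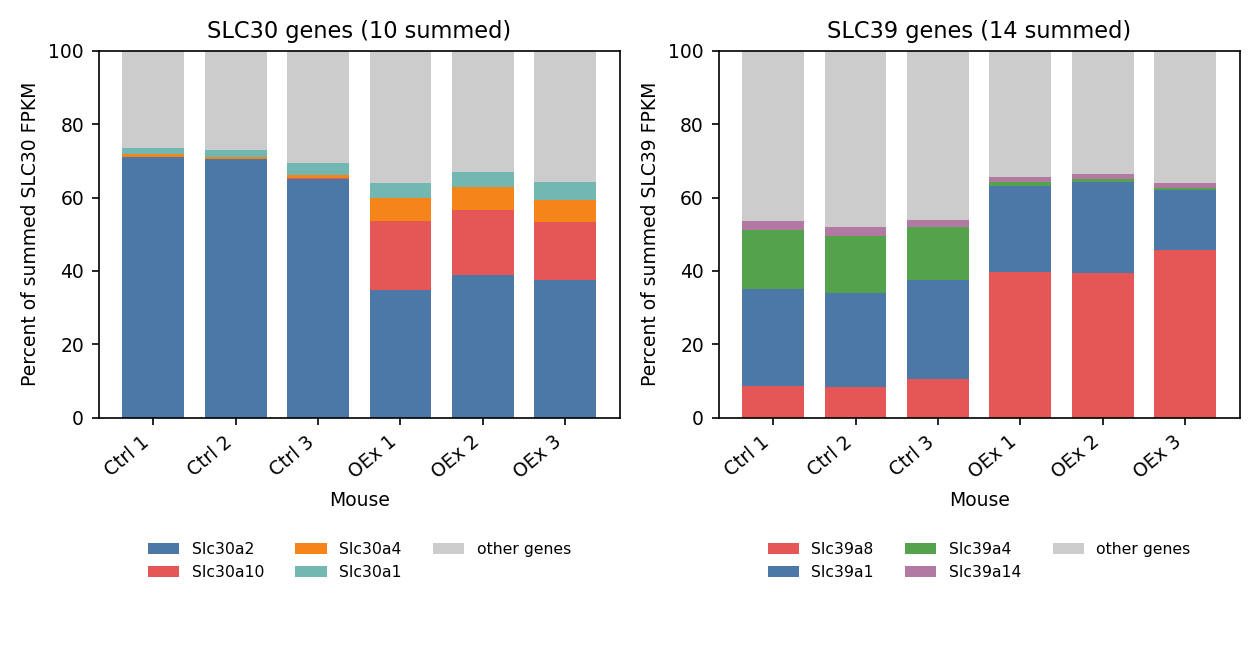
Share of each named gene in the summed FPKM of 10 SLC30 genes (left) and 14 SLC39 genes (right), in percent, for each mouse. Slc30a2 holds 65.2 to 71.1 percent of the SLC30 sum in Ctrl and 34.8 to 38.9 percent in OEx, and Slc39a8 holds 8.30 to 10.5 percent of the SLC39 sum in Ctrl and 39.4 to 45.8 percent in OEx.

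The make-up of both transporter families differed within each mouse, which is independent of the scaling between mice. Slc30a2 made up 71.1, 70.6 and 65.2 percent of the summed SLC30 FPKM in the Ctrl mice and 34.8, 38.9 and 37.6 percent in the OEx mice. Slc30a10 took 15.7 to 18.9 percent in OEx and at most 0.0431 percent in Ctrl. In Ctrl the family was thus dominated by 1 gene, and in OEx its transcripts were spread over more.

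Among importers, Slc39a8 accounted for 39.6, 39.4 and 45.8 percent of the summed SLC39 FPKM in OEx and 8.63, 8.30 and 10.5 percent in Ctrl. Slc39a4 accounted for 0.907, 0.922 and 0.565 percent in OEx and 15.9, 15.5 and 14.3 percent in Ctrl. Slc39a1 differed less, with 23.7, 24.9 and 16.4 percent in OEx and 26.6, 25.8 and 27.1 percent in Ctrl. None of these shares overlapped between groups. The ratio of summed SLC39 to summed SLC30 FPKM was 1.69, 1.67 and 1.72 in OEx and 1.44, 1.44 and 1.51 in Ctrl, a small difference beside those of the single genes.

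**Figure D4:**
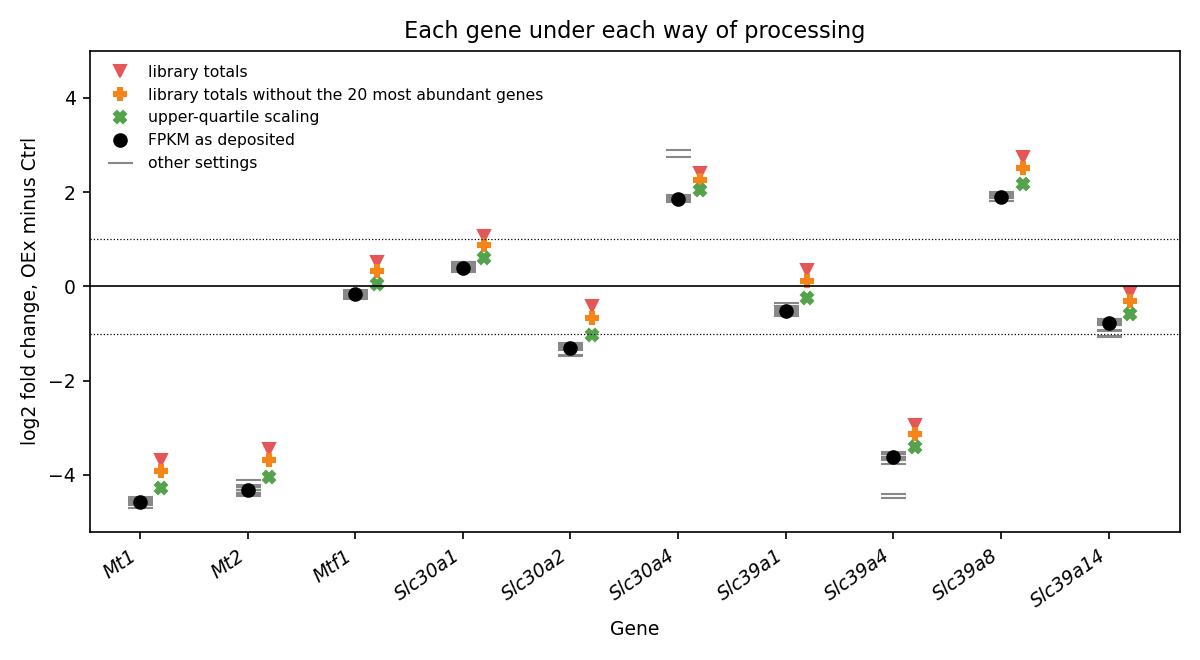
Log2 fold change of each of the 10 genes under every way of processing that was tried, with the deposited scaling as black circles, 3 other scalings as coloured markers and all remaining settings as grey bars. The dotted lines mark a 2-fold change. Mtf1 and Slc39a1 cross 0 with the scaling, and Mt1, Mt2, Slc39a4, Slc30a4 and Slc39a8 stay outside the dotted lines on the same side wherever they were tested.

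Levels of some markers of other cell types also differed between groups, and their part in the transporter results was not tested. Over all tested genes, 12.8% were called higher and 15.5% lower. Of 3 urothelium markers, 2 (Upk1a and Upk3a) were called higher, with sums of 251 to 457 FPKM in OEx and 16.4 to 32.6 FPKM in Ctrl. Only 7, 4 and 9 reads stood behind Upk3a in the Ctrl mice. Smooth muscle and fibroblast markers were called lower in 3 of 6, with sums of 299 to 461 FPKM against 816 to 1678 FPKM. The 3 were the smooth muscle genes Acta2, Myh11 and Des. Vim, Pdgfra and Col1a1 were not called, with log2 fold changes of -0.89, -0.25 and 1.29. Col1a1 was at 75.4, 83.7 and 6.04 FPKM in OEx and 11.4, 11.5 and 18.9 FPKM in Ctrl. Red blood cell genes were called lower in 4 of 4 (9.42 to 21.4 FPKM against 31.7 to 151 FPKM). None of 3 endothelium markers was called (4.99 to 6.05 FPKM against 10.8 to 14.6 FPKM). Their log2 fold changes of FPKM + 1 were -0.97 (Pecam1), -0.87 (Cdh5) and -0.30 (Kdr), with limma adjusted p of 0.0020, 5.2e-04 and 0.078. By group means they were 2.39, 2.19 and 1.51 times as high in Ctrl. None of the 3 of 6 immune markers that passed the filter was called (sum of all 6, 12.1 to 191 FPKM against 26.4 to 64.9 FPKM). Below the filter, Ptprc was at 0.427 to 1.85 FPKM in OEx and 0.0742 to 0.201 FPKM in Ctrl, without overlap. Cd3e and Cd79a, also below it, overlapped. No marker of these lists was at 0 in every mouse. The immune sum was 191 and 174 FPKM in OEx replicates 1 and 2 and 12.1 FPKM in replicate 3. Lyz2 alone was at 171, 155 and 7.79 FPKM in these mice.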

How the data were processed

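RNA-seq libraries came from the whole AP, 3 mice in each group. FPKM were deposited by the authors in 6 tables. The submitters' processing notes name HISAT2 2.0.5, featureCounts 1.5.0-p3, StringTie 1.3.3b and CASAVA, and the genome build is not given in the sources used here. The 544 rows without a gene name (0.632% to 1.21% of the FPKM) were left out. Reads were recovered with GENCODE M21 (GRCm38) exon lengths, matched by symbol. Of values under 1000 reads, 96.9% to 97.5% were whole within 0.05 reads. Libraries this deep leave counting error on genes of few reads, and the intervals of the 2 ratios of summed reads (Mt3 and Slc30a10) cover that error only, while limma's intervals rest on the spread between mice.

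Groups were compared in R 4.3.3 with limma 3.58.1 (eBayes with an intensity trend, group as the only term) on log2(FPKM + 1). The fit was also run on simulated data with few changed genes and the same spread for all genes. That simulation held no outlying mouse and no shift in scaling, so it does not bear on the effect of either here. Alternatives were other scalings, pseudocounts and filters, each mouse left out, a replicate block and limma-voom on recovered reads. Averaging replicates 1 and 2, and leaving out replicate 3 of both groups, were chosen after seeing the data. The genes and lists were chosen with earlier results of these data known. All 10 genes are named, as are other family genes that were called and the 3 genes nearest in profile to Mt1. In each further list, up to 3 called genes with the largest change are named, except that red blood cell genes are given as a count. The labels do not say whether mice were littermates. Protein sequences were not used here. Plots were made with matplotlib 3.10.9.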

Additional observations from a re-analysis of the deposited data

How the results depend on the processing

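The log2 fold changes of the 10 genes kept their direction and their side of the call in 166 of 176 cases over 18 alternatives. The other filters, the replicate block and the fit without an intensity trend left each log2 fold change unchanged by construction. In those cases only the adjusted p could alter a call. The number of the 10 genes called higher was 1 rather than 2 with a filter of 5 FPKM, which only 6 of them passed. Transporter genes called higher, 3 at the deposited scaling, were 7 with equal FPKM sums, 6 with equal sums without the 20 most abundant genes, 5 with upper-quartile scaling, 5 with a pseudocount of 0.1 FPKM, 5 with limma-voom and 7 by adjusted p alone. Those called lower, also 3, were 1 with equal sums, 5 with a pseudocount of 0.1 FPKM, 5 with limma-voom, 5 without replicate 3 of both groups and 9 by adjusted p alone. Mtf1 turned to 0.51 with equal sums, 0.33 without the top 20 genes and 0.061 with upper-quartile scaling, and Slc39a1 to 0.35 and 0.11 under the first 2 of these. The call of Slc30a2 was lost at -0.42 and -0.66 under the same 2, and that of Slc39a11 at -0.84 with equal sums. Slc30a1 was called at 1.07 with equal sums, and Slc39a14 at -1.04 with a pseudocount of 0.1 FPKM and -1.08 with limma-voom. The cause was not tested in any of these cases. The median of all genes moved to 0.66, 0.46 and 0.17 under these 3 scalings. Leaving out 1 mouse gave 2 and 4 of the 10 genes and 3 and 3 to 4 transporter genes, higher and lower. The replicate block gave 2 and 4 of the 10 genes and 3 and 3 transporter genes, the counts without it. Same-numbered mice shared only a number, with correlations of their deviations from -0.31 to -0.19. Over all genes the block gave 1565 higher and 1906 lower, beside 1604 and 1941. Among the called genes named, depth limits Mt3 in OEx, with at most 31 reads per mouse. It also limits Slc30a10 and Upk3a in Ctrl, with at most 4 and 9 reads per mouse. Gm45774 had 18 to 25 reads per OEx mouse, and Trp63 had 27 to 64.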

Other observations

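Of 17 genes of iron and copper handling, 14 were tested, 4 were called higher and 5 lower, beside 12.8% and 15.5% of all tested genes, and the median log2 fold change was -0.31. These counts are for the deposited scaling alone, and the balance of calls over all genes moves with the scaling. On the scale of log2(FPKM + 1), which understates low genes, the largest changes were those of Slc40a1, the iron exporter ferroportin, with 2.06 (6.49 to 9.26 FPKM in OEx, 0.995 to 1.10 FPKM in Ctrl), of Ftl1, the ferritin light chain, with -1.79 (140 to 175 FPKM against 504 to 598 FPKM), and of Atox1, a copper chaperone, with -1.78 (91.6 to 106 FPKM against 327 to 351 FPKM). Groups did not overlap for these 3 genes, which also held for 72.5% of all tested genes.

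Prostate epithelium is known for secreting citrate along with zinc. Of 9 tested genes of citrate metabolism and transport, 1 was called higher, Ank, a membrane protein linked to pyrophosphate and citrate release, with a log2 fold change of 1.47, and 1 lower, Slc25a1, the mitochondrial citrate carrier, with -1.77. Over all tested genes, 12.8% were called higher and 15.5% lower. Of 7 tested genes of the metal and oxidative stress response, limma called none, beside 28.2% of all tested genes. Among the 7, 2 higher and 2 lower had an adjusted p under 0.05, beside 30.9% and 36.5% of all tested genes. Gclm, a subunit of the enzyme that makes glutathione, had a log2 fold change of 0.98 (31.3 ± 3.58 FPKM in OEx, 15.4 ± 2.55 FPKM in Ctrl, SD, n = 3). Nqo1, a quinone reductase, was 3.64 times as high in Ctrl by group means, with a log2 fold change of FPKM + 1 of -0.87 (limma adjusted p = 0.0064). Both were chosen after their values were seen.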
